A study of Arabidopsis thaliana with 4 samples.

Results

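The experiment asks what differs in the rosette leaves of Col-5 plants of Arabidopsis thaliana after phosphate has been left out of the nutrient solution for 100 h. It rests on 2 of the 4 Affymetrix arrays of the series, 1 array for leaves in full nutrients and 1 array for leaves without phosphate. The members were chosen by their labelled solution and time. All plants had grown on agar with sucrose and were moved at 21 days to hydroponics under constant light, and all were at the same labelled growth stage. The full solution held 0.25 mM phosphate. The other solution held none and had 0.125 mM of extra potassium sulphate, so the 2 arrays differ in potassium sulphate as well as in phosphate, and the parts of these salts cannot be told apart. The same 2 solutions were sampled at 4 h, with 1 array each, and those values are set beside the 100 h values where they help. The number of plants behind an array is not given in the sources used here.

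Each group has 1 array, so no difference here has a replicate check and no p-value can be given. Sizes are described by a rule: a probe set is called higher or lower where the ratio of the arrays is 2-fold or more. The titles put both the identity of the control and the labelled times in doubt. The title code of the 4 h full-nutrient array is NPK. The control of 100 h bears P24, a code of the form found on the no-phosphate arrays, which are PO6 at 4 h and P72 at 100 h, and none of these codes holds the labelled hours. Whether the control was a no-phosphate array of another time was not tested. The labels were followed. The ratio to the 4 h full-nutrient array is given for the genes and families it moves most, and of 64 named probe sets past 2-fold, 45 were past it in the same direction against that array. That count is no independent check, since both ratios use the same no-phosphate array. Most of the 64 were also chosen for the size of their 100 h ratio.

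Plants short of phosphate are known to save and recover it. The transcription factor PHR1 switches on phosphate transporters, secreted acid phosphatases and ribonucleases, and enzymes that replace phospholipids by sulpho- and galactolipids, while sugars, starch and anthocyanins often build up in leaves. Leaves also carry defence genes, among them chitinases and glucanases that cut fungal cell walls and class III peroxidases, secreted enzymes that make or use hydrogen peroxide in the cell wall.

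The genes best known for the phosphate response were almost all without a named probe set here. Of 33 genes for phosphate signalling and transport, 2 had one. LPR1, a multicopper oxidase of the root tip response to low phosphate, read 5.7, 0.7, 1.1 and 0.7, in the order full nutrients at 4 h, no phosphate at 4 h, full nutrients at 100 h and no phosphate at 100 h, which is the order of all lists of 4 intensities in the text. Those readings were all under the floor of 7.25, under which intensities were not told apart. WRKY6, a transcription factor that represses PHO1 in Arabidopsis, read 153.3, 78.9, 36.3 and 40.2, a log2 ratio of 0.15 at 100 h. Both 100 h arrays were well below the 4 h array in full nutrients, and they differed little from each other. None of 17 membrane lipid remodelling genes had a named probe set. Of 15 phosphatases and ribonucleases only the ribonuclease gene AT1G14220 had one, and it was under the floor on both 100 h arrays. Of 31 genes for starch and sugar metabolism, 3 were measured and 2 passed the filter on dim probe sets. APL3, a large subunit of the enzyme that makes ADP-glucose for starch, read 22.3, 45.3, 14.3 and 34.9, a log2 ratio of 1.29. The full-nutrient array of 100 h was the lowest of the 4 for it. SBE2.2, a starch branching enzyme, had a log2 ratio of 0.49.

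The labelled tissue could be checked with 1 of 6 leaf markers. RCA, the activase of the CO2-fixing enzyme Rubisco, read 7395.1 in full nutrients and 5118.5 without phosphate. Root, flower and seed markers had no named probe set, with 0 of 5, 0 of 5 and 0 of 3. In a leaf sample, fewer cells of a type and less RNA per cell cannot be told apart.

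Technical measures differed between the arrays. The scanner recorded a mean background of 55.21 in full nutrients and 69.92 without phosphate. The ratio of 3′ to 5′ signal of the GAPDH control, which grows as RNA is shortened, was 4.52 and 2.12 in the same order, and that of the ubiquitin control 3.35 and 2.97. At 4 h the GAPDH ratio was 4.07 in full nutrients and 2.61 without phosphate, and the ubiquitin ratio 3.09 and 2.57. Both ratios were thus higher in full nutrients at both times, and the effect of this on the results was not tested. The 9 probe sets for RNA added at hybridisation had a mean log2 ratio of -1.06 ± 0.24 (SD over the 9 probe sets). If the arrays are scaled to this added RNA, every log2 ratio moves up by the same amount, and the median over the probe sets that pass the filter goes from 0.02 to 1.09. The deposited scaling equalises the arrays instead. Neither scaling was tested against the amounts in the leaf. The added RNA joined the samples only at hybridisation, so it cannot show how much RNA a leaf held. Directions are therefore relative to the bulk of the probe sets.

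Of 8247 probe sets, 4331 passed the filter, which asks that the brighter of the 2 arrays reaches 22.45. Their log2 ratios lay mostly near 0, with quartiles at -0.31 and 0.36. A difference of 2-fold or more was seen in 439 of them (10.1%), of which 206 (4.76%) were higher and 233 (5.38%) lower without phosphate. At 1.5-fold there were 632 higher and 569 lower, and the balance tipped to the lower side at larger sizes. At 3-fold there were 62 higher and 103 lower, at 4-fold 18 and 52, and at 8-fold 4 and 14. Part of the lower side consists of bounds: on 64 probe sets, 22 higher and 42 lower, 1 array was at the floor, and a probe set that passes the filter with 1 array at the floor is past 2-fold by construction. Such calls depend on the floor: with a floor of 17.325, SPR1, LEA4-5, AT4G01130, AT4G33720, GH3.3, WRKY53 and AT1G54050, described with their families, were under 2-fold, at 0.71, 0.60, 0.55, -0.76, -0.75, -0.57 and 0.96 on the log2 scale. Probe sets of the same gene differed in their log2 ratios with an SD of 0.41 (81 genes, 173 probe sets), which covers error on the array and not the spread between plants. Among 1705 named genes, 75 (4.4%) were higher and 82 (4.81%) were lower, with a median log2 ratio of 0.08.

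**Figure D1:**
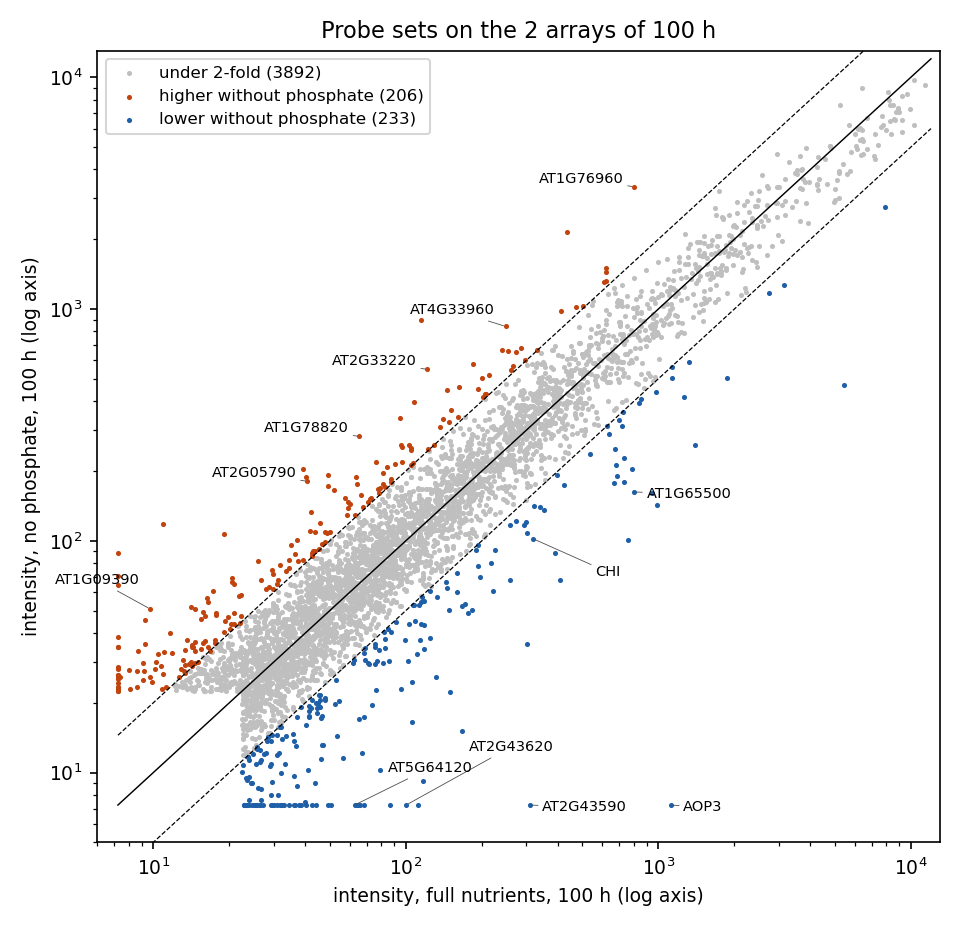
Intensity of each of the 4331 probe sets that passed the filter on the full-nutrient array (horizontal) and the no-phosphate array (vertical) of 100 h, both on log axes, with values under 7.25 drawn at that floor; the solid line marks equal values and the dashed lines 2-fold. The 206 higher probe sets (red) and 233 lower ones (blue) lie at every brightness, and the row of points along the bottom holds the lower probe sets that are bounds.

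Calls were not confined to dim probe sets. With the brighter array between 22.45 and 50, 6.09% of 1329 probe sets were higher and 7.90% lower. At 1000 and above, the shares were 2.40% and 3.29% of 334 probe sets. Of the 1668 probe sets that reached 100 on each of the 2 arrays, 42 were higher without phosphate and 41 lower. Both shares were below those over all probe sets past the filter, which were 4.76% higher and 5.38% lower. Asking for 100 on both arrays leaves out probe sets that were bright on only a single array, and large ratios with them.

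**Figure D2:**
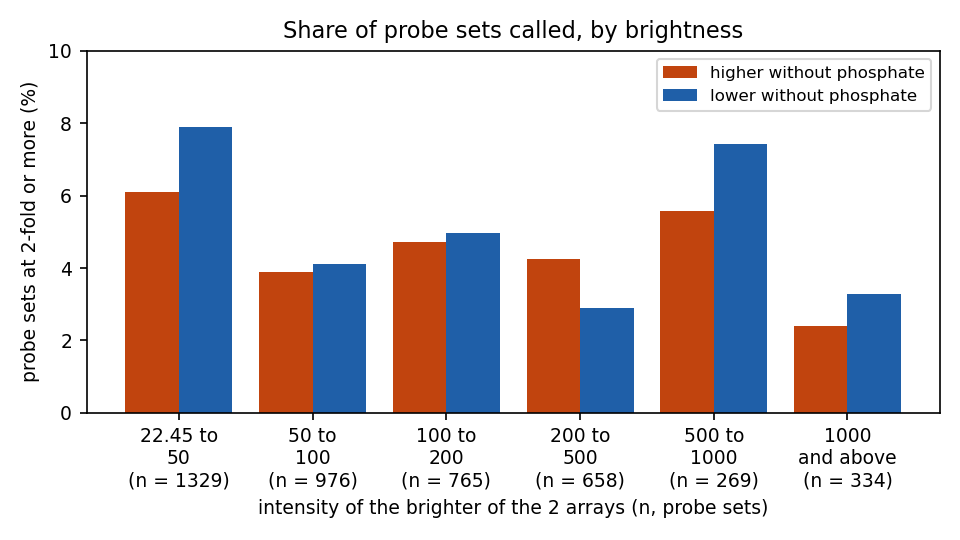
Share of probe sets (vertical, percent) that were 2-fold or more higher (red) or lower (blue) without phosphate at 100 h, by the intensity of the brighter array (horizontal). The shares are 6.09% and 7.90% in the dimmest bin and 2.40% and 3.29% in the brightest.

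For each called probe set, the 100 h arrays were also set against the 4 h arrays. An array was counted as apart where it lay 2-fold or more beyond both 4 h arrays, in the direction that makes the call. A full-nutrient array that moved from 4 h in the same direction as the no-phosphate array was not counted. A fall or rise with time in both solutions can therefore count for the no-phosphate array, as for AT4G01870 (1332.6, 921.2, 182.7 and 50.3). For the 233 lower probe sets, the no-phosphate array was apart in 130 (55.8%), the full-nutrient array in 35 (15.0%), both in 2, and neither in 66 (28.3%). For the 206 higher probe sets, the no-phosphate array was apart in 81 (39.3%), the full-nutrient array in 18 (8.74%) and neither in 107 (51.9%). Most lower calls therefore went with a no-phosphate reading 2-fold or more below both 4 h arrays, which does not separate the solution from time. In about as many higher calls as not, neither 100 h array lay 2-fold beyond the 4 h arrays in the direction counted.

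Chitinase genes had the lowest median ratio among families with 4 or more genes past the filter. Of 24 genes listed, 16 were measured and 4 passed the filter, of which 3 were lower and none higher, and their median log2 ratio was -2.71 against 0.08 for all named genes. Over all named genes, 4.81% were lower and 4.4% higher. This family and the PR-type, peroxidase, chaperone, antioxidant and GDSL lists were added after seeing the data. AT2G43590 and AT2G43620 passed the filter through the full-nutrient array alone, where they are high, so the count and the median follow in part from the filter. CHI was the only member at 100 or more on both arrays. AT2G43620 read 512.4, 392.2, 100.3 and 6.4, at least 13.8-fold lower without phosphate at 100 h. CHI (AT2G43570) read 1660.5, 1996.8, 318.3 and 102.2, a log2 ratio of -1.64. For both genes, both 100 h arrays were below both 4 h arrays, and the one without phosphate was the lowest. AT2G43590 took another course, at 42.6, 70.2, 309.4 and 2.1 on one probe set and 23, 50.5, 117.1 and 9.2 on the other. Its full-nutrient reading at 100 h was the highest of the 4, and its no-phosphate reading was the lowest, at least 42.7-fold lower on the first probe set and with a log2 ratio of -3.67 on the second. AT2G43610 read 38.9, 37.9, 46.2 and 43.4 and did not differ beyond the error of measurement. The 3 lower genes stand close together on chromosome 2, and AT2G43610 lies among them, so the near-flat gene is a neighbour of the lower ones. Over the same genes, scaling to the added RNA put the family's median at -1.65, against 1.09 for all probe sets. Probe sets of related sequence may share signal, and this was not tested.

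Other genes of the pathogenesis-related (PR) kind were mostly lower too. Of 25 glucanase, thaumatin-like, thionin, defensin, PR1-like and PR6-like genes, 12 were measured and 9 passed the filter. There were 5 lower and 1 higher, beside 4.81% and 4.4% of all named genes, and the median log2 ratio was -1.08. Over the same genes it was -0.01 with scaling to the added RNA and -0.27 against the 4 h control. AT4G33720 and LCR72 passed the filter through the full-nutrient array alone and THI2.1 through the no-phosphate array alone. The counts and the median therefore follow in part from the filter. With the higher floor, 3 were lower and 1 higher, with a median of -0.79. With probe sets that bear a suffix in their names left out, 2 were lower and none higher, with a median of -0.70. Suffixes are explained with the peroxidases below. OSM34, an osmotin of the thaumatin-like family, read 973.6, 1817, 103.1 and 43.8, a log2 ratio of -1.24. The glucanase AT4G16260, whose class cuts β-1,3-glucan, read 795.7, 1472.7, 159.9 and 72.5, a log2 ratio of -1.14. AT2G38870, a protease inhibitor of the PR6 type, read 3994.5, 2066.9, 701.4 and 332.4, a log2 ratio of -1.08. In all of these the step from 4 h to 100 h was larger than the step between the solutions at 100 h. The PR1-like gene AT4G33720 read 0.6, 0.7, 29.3 and 2.9, at least 4.04-fold lower, and the defensin-like gene LCR72 read 14.8, 1.4, 30.9 and 11.9, a log2 ratio of -1.38. For this pair the full-nutrient array of 100 h was the one that stood out, as the highest of the 4. Against the 4 h control LCR72 was at -0.31, and AT4G33720 was under the floor on both arrays. The exception was THI2.1, a thionin that attacks microbial membranes, which read 36.4, 30.3, 4.6 and 38.6. It was at least 5.32-fold higher without phosphate, because the full-nutrient array of 100 h was low while the no-phosphate array was like both 4 h arrays, and its log2 ratio to the 4 h control was 0.08.

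Class III peroxidases were split between lower members and members under 2-fold. Of 73 genes listed, 46 were measured and 16 passed the filter. Of these, 7 were 2-fold or more lower and none was 2-fold or more higher, beside 4.81% and 4.4% of all named genes. The median log2 ratio was -0.57, which over the same genes is 0.49 with scaling to the added RNA and so flips in sign there, against 1.09 for all probe sets. Of the 16, 5 passed the filter through the full-nutrient array alone and 1 through the no-phosphate array alone, so the count and the median follow in part from the filter. Among members at 100 or more on both arrays the median was 0.37. AT2G38380 read 223.6, 125.8, 111.9 and 2.5 on one probe set and 104.3, 74.6, 63.8 and 3.7 on the other, at least 15.4-fold and at least 8.80-fold lower. AT5G64120 read 636.7, 384.8, 62.7 and 6.9, at least 8.65-fold lower. The no-phosphate array of 100 h was under the floor for both genes, while the other 3 arrays were well above it.

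Other lower peroxidases had a high control instead. AT2G18150 read 8.9, 65.2, 131.8 and 25.9, a log2 ratio of -2.35. AT5G17820 read 1.6, 2.3, 22.8 and 2.3, at least 3.14-fold lower. AT3G21770 read 13.6, 14.1, 45.8 and 19.2, a log2 ratio of -1.25. In these 3, and in AT2G38390 (11, 6.5, 25.5 and 10.9), the full-nutrient array of 100 h was the highest, and 3 of these 4 no-phosphate readings lay within 2-fold of the 4 h full-nutrient reading, values under the floor being taken as the floor. AT2G37130 read 415.2, 724, 839.4 and 391.8, a log2 ratio of -1.10. Its no-phosphate reading was close to the 4 h control as well. Against that 4 h control, the family's median over the same genes was 0.22, and AT2G18150 turned from a log2 ratio of -2.35 to 1.54. At the other end of the family, AT1G71695 read 123.6, 71, 243.3 and 427.3, a log2 ratio of 0.81, and AT5G51890 had a log2 ratio of 0.79. Of the 7 lower genes, AT2G38390 alone is read by a probe set without a suffix in its name. The suffixes mark sets whose probes are shared with other sequences, incomplete or chosen under relaxed rules, and signal from close relatives was not tested. With such sets left out, the family's median was -0.03.

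**Figure D3:**
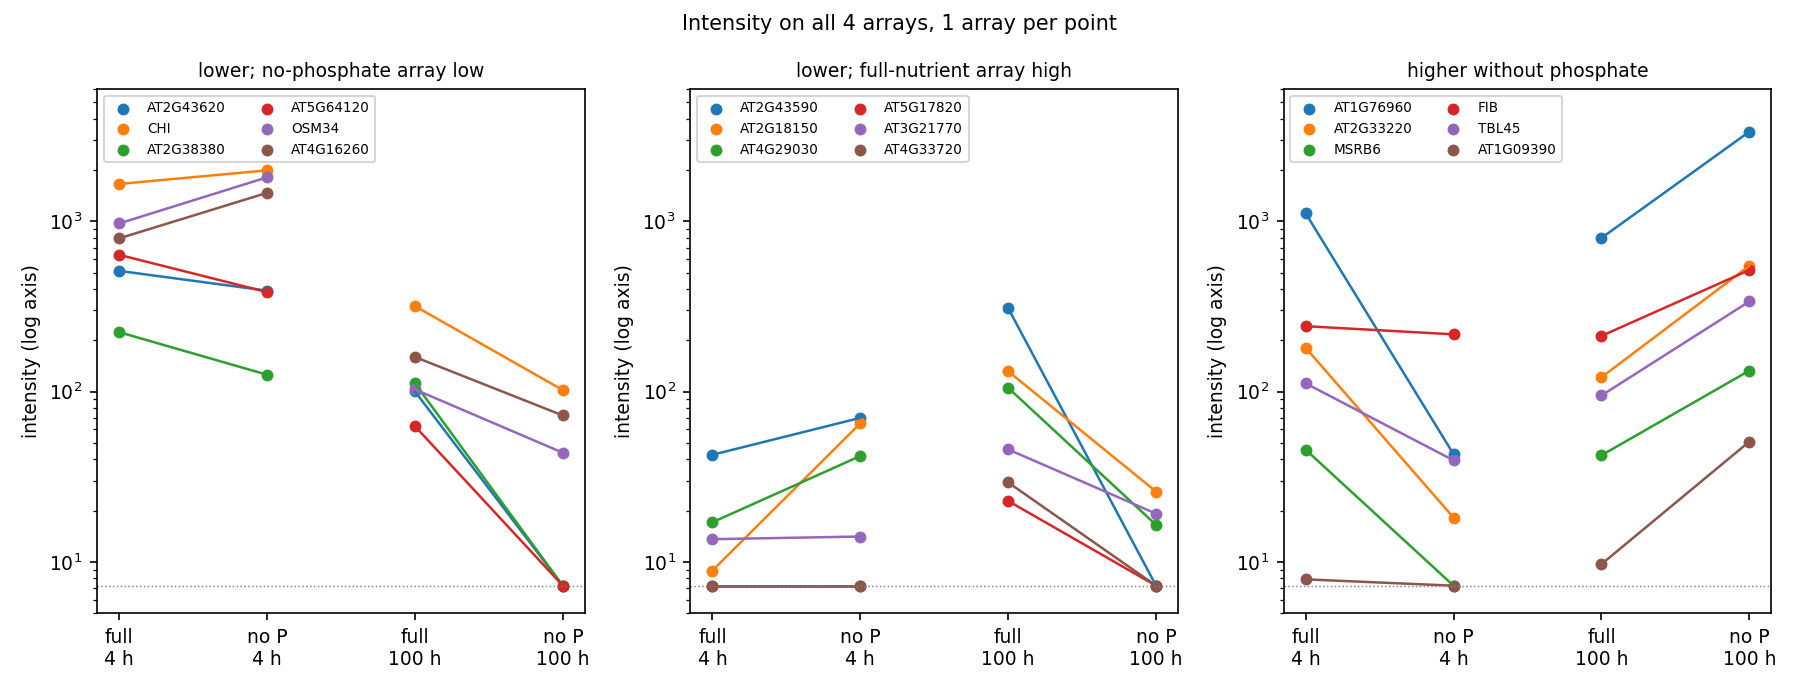
Intensity (vertical, log axis, floor dotted) on each of the 4 arrays (horizontal) for 18 probe sets, 1 point per array, with a line joining the solutions at each time. In the left panel the no-phosphate array of 100 h is the lowest of the 4, in the middle panel the full-nutrient array of 100 h is the highest, and in the right panel the no-phosphate array of 100 h is the highest.

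The largest ratio of any named gene was that of AOP3, a dioxygenase that modifies the side chain of glucosinolates, the sulphur-rich defence compounds of cabbages and their kin. It read 367.8, 1706, 1119.5 and 5.7, at least 154-fold lower, and the no-phosphate array of 100 h was the only one of the 4 without a clear reading. GTR1, a glucosinolate transporter, had a log2 ratio of 0.03. SAG29, a sugar transporter gene named for its rise in senescent leaves, read 177.7, 1085.4, 38.6 and 6.1, at least 5.32-fold lower. AT1G09500, of the cinnamyl alcohol dehydrogenase family, read 771.8, 1119.4, 50.4 and 6.4, at least 6.95-fold lower. For these 2 genes the full-nutrient array of 100 h was already far below both 4 h arrays. CCOAMT, a methyltransferase of lignin precursors, read 83.9, 54, 54.4 and 20.3, a log2 ratio of -1.42. The dirigent-type gene AT4G11190, whose family guides the coupling of lignans, read 2.5, 8.8, 31.7 and 3.3, at least 4.37-fold lower. It was bright enough to be read on the full-nutrient array of 100 h alone.

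The lower genes described next belong to no common list. STZ, WRKY53 and GH3.3 are named as list extremes, and AT2G42350 and AT2G42360 were named after their values were seen. The others are named for the size of their ratios. STZ, a zinc finger repressor also known as ZAT10, read 371.8, 335.1, 148.4 and 50.2 on one probe set, a log2 ratio of -1.56. Its other probe set read 704.1, 516, 211.6 and 152.8, a log2 ratio of -0.47, so the 2 sets fall on different sides of 2-fold while both put the no-phosphate array lowest. WRKY53, a senescence regulator, read 68.5, 39.2, 25.7 and 12.7, a log2 ratio of -1.02, which becomes 0.05 with scaling to the added RNA. It was the lowest of 6 WRKY genes that passed the filter, whose median of -0.29 becomes 0.77 over the same genes under that scaling. GH3.3, which joins auxin to amino acids, read 187.3, 108.4, 29.2 and 10.9, a log2 ratio of -1.42. The neighbours AT2G42350 and AT2G42360, RING-type genes of the ATL family, had log2 ratios of -1.60 and -1.10. AT2G32210 and AT1G05340, both of the cysteine-rich transmembrane module family, had log2 ratios of -2.09 and -1.94. AT1G05340 read 984.1, 1440.1, 259.4 and 67.7. The no-phosphate array of 100 h was again the lowest, and the full-nutrient array of that time the next lowest. The same order held for AT1G65500 (1981.1, 2883.7, 800.5 and 162.5) and for AT4G01870 (1332.6, 921.2, 182.7 and 50.3), with log2 ratios of -2.30 and -1.86. AT3G44400, a receptor gene of the TIR-NBS-LRR class of disease resistance, read 381, 601.2, 302.4 and 108.3, a log2 ratio of -1.48.

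Chaperone genes divided. Of 38 heat shock and endoplasmic reticulum chaperone genes, 9 were measured and 6 passed the filter. There were 2 lower and 1 higher, beside 4.81% and 4.4% of all named genes. The median log2 ratio was -0.58, which over the same genes becomes 0.48 with scaling to the added RNA. Hsp70-2 passed the filter through the full-nutrient array alone and AT1G54050 through the no-phosphate array alone. Their calls therefore follow in part from the filter. Hsp70-2 read 158.7, 185.2, 46 and 11.5, a log2 ratio of -2. CRT1b, a calreticulin that folds glycoproteins, read 120, 281.8, 116 and 57.2, a log2 ratio of -1.02. The no-phosphate array was lowest for both. AT3G09440, another HSP70 gene, was read by a pair of probe sets, with log2 ratios of -1.16 and -0.37. AT1G54050, a small heat shock protein gene, read 24.8, 11, 13.4 and 33.8, a log2 ratio of 1.33, with the no-phosphate array of 100 h the highest, and its ratio to the 4 h control was 0.45 on the log2 scale.

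Of 40 antioxidant and methionine repair genes, 14 were measured and 13 passed the filter. There were 4 higher and 1 lower, beside 4.4% and 4.81% of all named genes, and the median log2 ratio was 0.31. The list was added after seeing the data. MSRB5 and MSRB6, adjacent genes for enzymes that reduce oxidised methionine, read 316.5, 73.7, 265.5 and 568.2, and 45.6, 6, 42.3 and 132.9. Their log2 ratios were 1.10 and 1.65. Both were low without phosphate at 4 h and highest without phosphate at 100 h, with nearly equal readings in full nutrients at the 2 times. GR, the glutathione reductase of plastids, read 48.4, 55.2, 41.6 and 110.1, a log2 ratio of 1.40. FIB, a fibrillin of the lipid droplets of plastids, read 242.6, 217.2, 212.6 and 518.2, a log2 ratio of 1.29. For both genes 3 arrays were alike and the no-phosphate array of 100 h stood above them. The exception was SAPX, the stromal ascorbate peroxidase, which removes hydrogen peroxide. It read 103.1, 137.6, 113.4 and 37.4, a log2 ratio of -1.60, with 3 arrays alike and the no-phosphate array of 100 h below them. Its thylakoid relative TAPX had log2 ratios of 0.43 and 0.75 on 2 probe sets, and GR1, the other glutathione reductase gene, of -0.28. Among members that reached 100 on each array, the list's median was -0.16.

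AT4G02530, which encodes a protein of the thylakoid lumen, and its neighbour AT4G02540 had the same course as the MSRB genes. They read 141.9, 27.7, 81 and 195.9, and 61.8, 11.2, 43.7 and 109.6. Both were low without phosphate at 4 h, and their log2 ratios at 100 h were 1.27 and 1.33.

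Genes of the GDSL family, whose enzymes cut ester bonds of lipids, cutin and the cell wall, were mostly at or above the control. Of 65 genes, 26 were measured and 10 passed the filter. There were 3 higher and none lower, beside 4.4% and 4.81% of all named genes, and the median log2 ratio was 0.82. All 3 higher genes passed the filter through the no-phosphate array alone, where they are high, so their calls follow in part from the filter. AT1G09390 read 7.9, 2.2, 9.7 and 50.9, a log2 ratio of 2.39. AT2G03980 read 27.8, 8, 16.3 and 56.5, a log2 ratio of 1.79. AT4G01130 read 12.8, 0.8, 0.8 and 25.3, at least 3.49-fold higher. The no-phosphate array of 100 h was the highest for each. The rest were below 2-fold, from AT4G18970 at 0.93 to AT1G54010 at -0.22. Against the 4 h control the median over the same genes was 1.09.

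Of 14 cell wall genes chosen by the words of their names that passed the filter, 1 was higher and none lower, with a median log2 ratio of 0.33. With 4.4% of all named genes higher and 4.81% lower, nothing is read from this count or from those of the smaller lists in this paragraph. The higher one was TBL45. AT2G05790 and SPR1 are named for the size of their ratios, and AT1G05310 was named after its value was seen. AT2G05790, of glycosyl hydrolase family 17, read 28.8, 16.8, 40.6 and 180.7, a log2 ratio of 2.15. TBL45, whose relatives add acetyl groups to wall polysaccharides, read 111.9, 39.5, 95 and 338.8, a log2 ratio of 1.83. Of 5 trichome birefringence-like genes that passed the filter it was the only one past 2-fold, and the median of the 5 was 0.73. AT1G05310, a pectin methylesterase gene, read 12.5, 12.3, 34.6 and 82.4, a log2 ratio of 1.25. SPR1, a microtubule-associated protein of directional cell growth, read 8.1, 6.7, 7.2 and 28.4, at least 3.92-fold higher. In each of these the no-phosphate array of 100 h was the highest. Expansins, which loosen walls, gave no call among 5 genes, with log2 ratios from -0.75 for EXPA15 to 0.97 for EXPB1.

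Other higher genes had no shared family. AT1G76960 read 1114.8, 42.9, 799.9 and 3366.6, a log2 ratio of 2.07. AT2G33220, a subunit gene of mitochondrial complex I, read 180.9, 18.2, 121.5 and 549, a log2 ratio of 2.18. For both, the no-phosphate arrays were the lowest and the highest of the 4, at 4 h and 100 h. AT1G78820, of the mannose-binding lectin type, had log2 ratios of 2.11 and 1.62 on 2 probe sets. AT4G33960 read 293.8, 89.3, 248.2 and 841.3, a log2 ratio of 1.76, and AT2G44290, of the lipid transfer type, read 313.7, 62.2, 184.8 and 579.6, a log2 ratio of 1.65. AT3G52500, an aspartyl protease gene, read 279.9, 107.6, 107.5 and 398.4, a log2 ratio of 1.89. These genes shared the low reading without phosphate at 4 h, although in AT3G52500 the full-nutrient array of 100 h was equally low. YAB3, a factor of leaf polarity, was higher on both of its probe sets, with log2 ratios of 1.27 and 1.32.

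Genes of cold and drought tolerance gave 2 higher calls among 8 that passed the filter, beside 4.4% of all named genes, and LEA4-5 is not past 2-fold with the higher floor. COR15B, a plastid protein that protects membranes in the cold, read 270, 137.6, 619.1 and 1314, a log2 ratio of 1.09. LEA4-5, a late embryogenesis abundant protein gene, read 16.6, 26.5, 3.1 and 26.3, at least 3.63-fold higher. It passed the filter through the no-phosphate array alone, so its call follows in part from the filter. COR15B was highest without phosphate at 100 h, whereas for LEA4-5 that array matched the 4 h array without phosphate and the control was low. Against the 4 h control LEA4-5 was at 0.66. The median of the list was -0.12, and COR47 was at -0.38 and -0.32 on its 2 probe sets.

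Photosystem, autophagy and vacuolar ATPase genes stayed below 2-fold in all members that passed the filter. The 8 photosystem and antenna genes had log2 ratios from -0.39 for PSAN to 0.86 for LHCB4.3, with a median of -0.04. The 6 genes of autophagy protein ATG8 lay between -0.17 and 0.20, and the 6 vacuolar ATPase genes between -0.30 and 0.72. Among 10 UDP-glycosyltransferases, which attach sugars to small molecules, UGT73B1 at -1.23 was the only one past 2-fold. With 4.4% of all named genes higher and 4.81% lower, nothing is read from the counts of these lists.

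**Figure D4:**
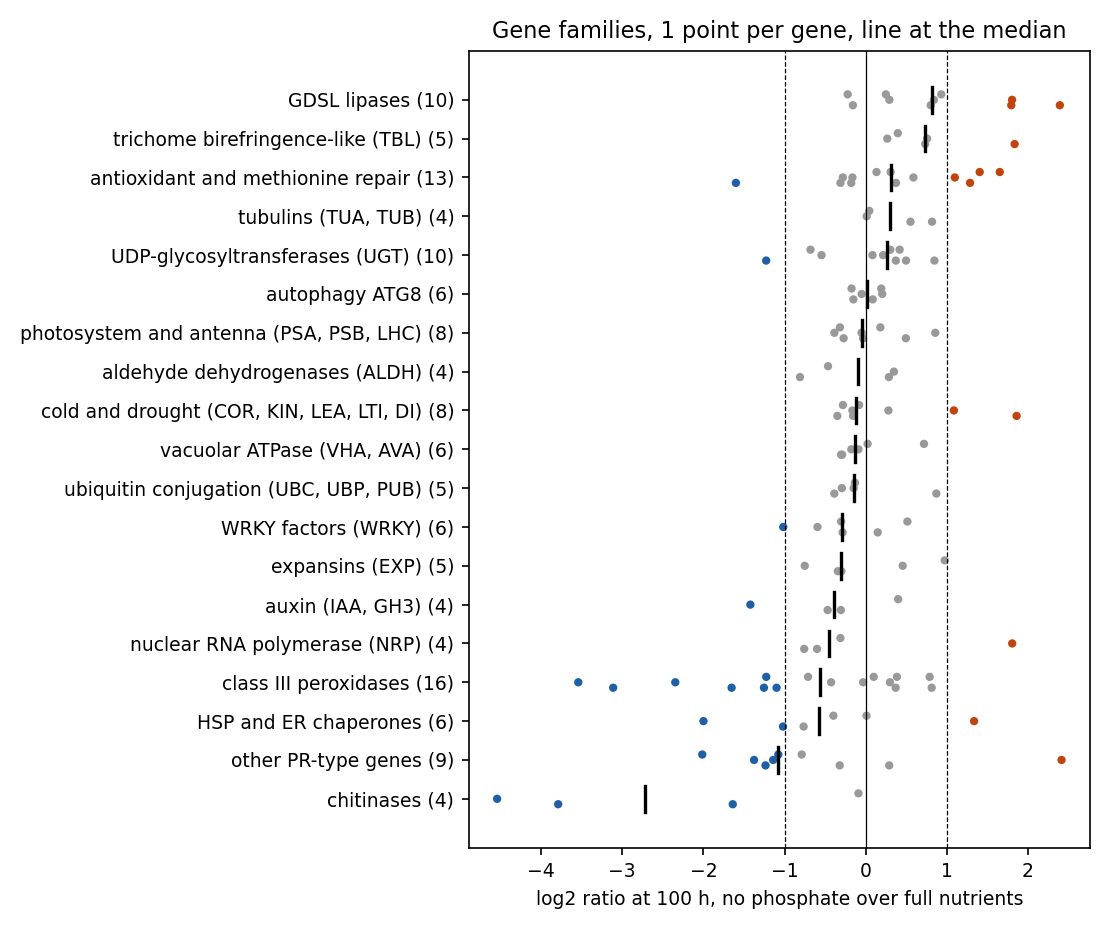
Log2 ratio at 100 h, no phosphate over full nutrients (horizontal), for each gene of the families with 4 or more genes past the filter (vertical, number of genes in parentheses); a black bar marks each median, dashed lines mark 2-fold, and genes past it are red or blue. Chitinases lie lowest with a median of -2.71 and GDSL lipases highest with 0.82; with scaling to the added RNA every point moves up by 1.06, which turns the medians of peroxidases and chaperones positive, at 0.49 and 0.48, and puts that of the other PR-type genes at -0.01.

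Neighbouring genes could be compared in 778 pairs at most 3 genes apart in the RefSeq gene order, with both past the filter. In 6 pairs both genes passed 2-fold with the same sign, and in 3 pairs with opposite signs. With 4.4% of named genes higher and 4.81% lower, nothing is read from counts this small. The first kind holds the chitinase, peroxidase, ATL, MSRB and thylakoid lumen neighbours named above. The second kind holds AT1G05310 and AT1G05340, AT1G54050 and AT1G54070, and the adjacent AT2G29590 and AT2G29600, at -1.24 and 1.70. Most of the pairs of the first kind are related in sequence, so their 2 readings may not be independent.

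Where a gene had several probe sets they did not always match. Of 81 genes with at least 2 probe sets past the filter, 9 had sets on both sides of 2-fold. AT2G35390, a phosphoribosyl diphosphate synthase gene, had log2 ratios of -0.59, 1.26 and 0.97. AT2G25760, a protein kinase gene, had 1.29 and -0.64. No direction is given for either. AT4G38540, of the monooxygenase type, had -1.42 and -0.59, which differ in size only. Of sets whose names end in _f_at or _i_at, 22.0% and 20.7% were called, against 9.54% of those without a suffix. Unnamed probe sets made up much of the whole: of 2495 that the platform annotation did not list, 123 were higher and 140 lower. Over all probe sets past the filter 4.76% were higher and 5.38% lower, so nothing is read from these counts.

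The choice of control changed the lower side more than the higher side in number. With the full-nutrient array of 4 h in place of that of 100 h, 442 probe sets were higher and 697 lower. Both ratios use the same no-phosphate array, so they are not independent. For chitinase CHI the log2 ratio went from -1.64 to -4.02, for AT2G38870 from -1.08 to -3.59 and for AT4G01870 from -1.86 to -4.73. The control of 4 h was the brighter one for each. AT4G29030 went from -2.68 to -0.05 and AT2G37130 from -1.10 to -0.08, since their 4 h control was like the no-phosphate array. On the higher side AT1G78820 had 2.11 and 2.17 and AT1G76960 2.07 and 1.59, whereas NRPE3B, an RNA polymerase subunit gene, had 1.80 and 0.38. Such genes as the last rest on a low reading of the full-nutrient array at 100 h.

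**Figure D5:**
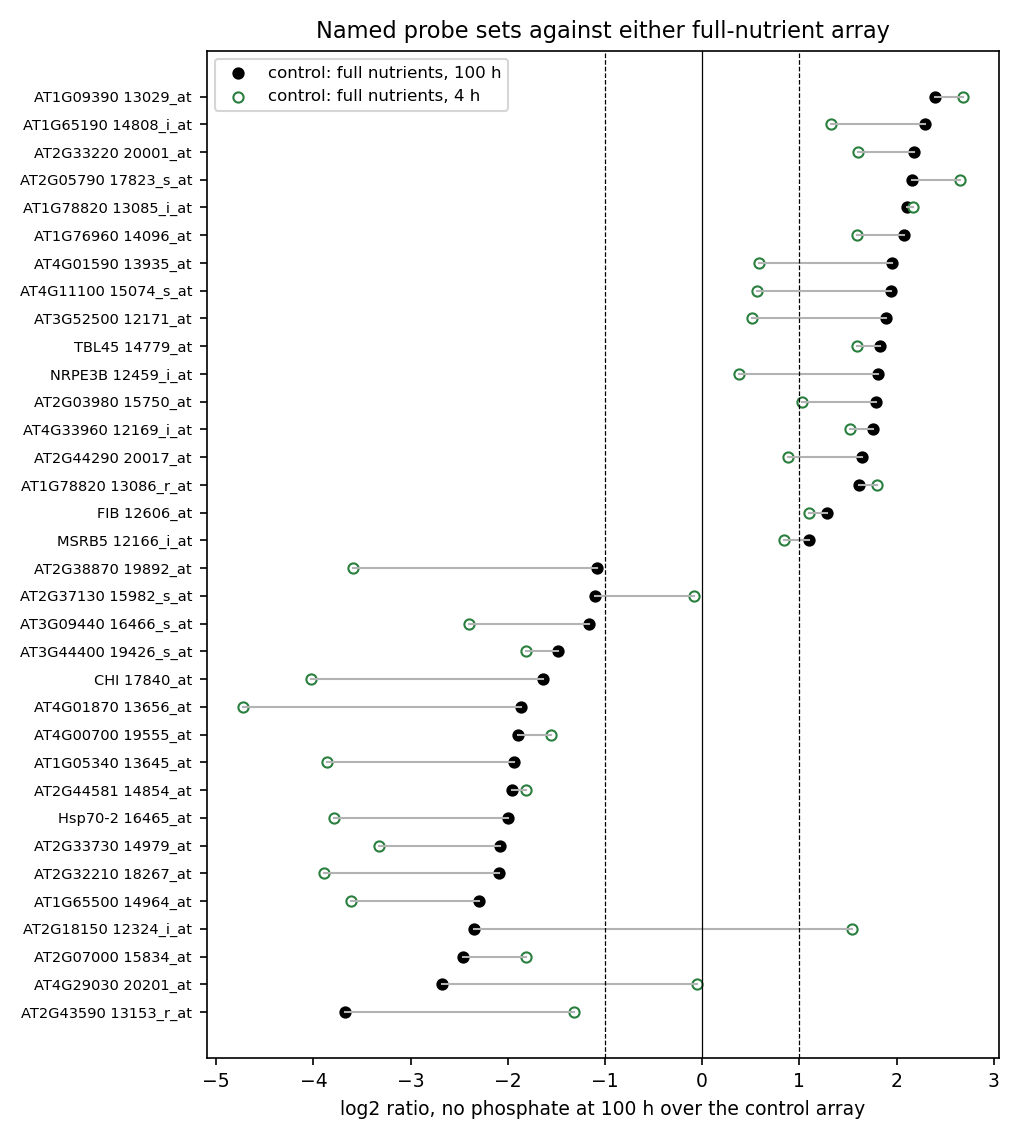
Log2 ratio of the no-phosphate array of 100 h (horizontal) to the full-nutrient array of 100 h (filled) or of 4 h (open) for the named probe sets at 2-fold or more (vertical), above the floor on both 100 h arrays. AT2G18150 moves from -2.35 to 1.54, AT4G29030 from -2.68 to -0.05, and CHI from -1.64 to -4.02, while the higher probe sets drawn keep their sign.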

How the data were processed

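The authors deposited 1 linear intensity per probe set for each of 4 arrays. Their software and summary method: not given in the sources used here. The arrays had trimmed means from 99.02 to 99.53, so they had been scaled alike, and no further scaling was applied. Of 8297 probe sets, 50 controls were left out. The platform annotation named 1 gene for 3794, several for 70 (left unnamed) and listed none for 4383. RefSeq (TAIR10.1) served for names and gene order only.

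A floor of 7.25, the 30th percentile averaged over the arrays, replaced lower intensities. Probe sets passed where the brighter 100 h array reached 22.45 (the mean of the medians), and were called at 2-fold. A ratio to the floor is a bound. A gene's value in a list is the mean log2 ratio over its probe sets. With 1 array per group nothing was tested, and precision is limited by the number of arrays. Genes were named by rule: the 12 highest and 12 lowest ratios above the floor, the 8 largest bounds each way, the 8 highest and 8 lowest of those reaching 100 on each array, list extremes, all phosphate genes, and 6 genes with disagreeing probe sets; further called genes were named after their values were seen. The members and lists were chosen with earlier results of these data known. The families of peroxidases, chitinases, PR-type genes, chaperones, antioxidant genes, GDSL lipases and those taken by symbol (such as TBL and UGT) were added after seeing the data. The steps were checked on simulated data. Python 3.11.15, numpy 2.4.6, pandas 2.3.3 and matplotlib 3.10.9 were used.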

Additional observations from a re-analysis of the deposited data

Results flagged for a closer look

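For the genes in this paragraph, the ratio of no phosphate to full nutrients was 2-fold or more at both times, but in opposite directions. The value given is the log2 ratio at 100 h minus that at 4 h. With 1 array per group the difference between the times was not tested, and its cause was not tested.

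Lower at 100 h and higher at 4 h were AOP3 (-9.48), the peroxidase gene AT2G18150 (-5.22), SAG29 (-5.02), the chitinase gene AT2G43590 on its second probe set (-4.80) and AT4G29030 (-3.97). For AOP3 and SAG29 an array was at the floor, so these differences are bounds.

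Higher at 100 h and lower at 4 h were AT1G76960 (6.77), the complex I gene AT2G33220 (5.49), MSRB6 (4.30), AT1G78820 (4.26 and 2.66 on its 2 probe sets), AT2G44290 (3.98), AT4G01590 (3.68), the GDSL gene AT2G03980 (3.59), AT4G33960 (3.48), TBL45 (3.34), the aspartyl protease gene AT3G52500 (3.27), MSRB5 (3.20) and the small heat shock gene AT1G54050 (2.51). An array was at the floor for MSRB6 and AT4G01590 as well. Each gene of this group had its lowest or second lowest reading without phosphate at 4 h.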

How the results depend on the processing

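Counts of 206 higher and 233 lower stayed within 1.5 times with a floor at the 45th percentile, no floor, quantile normalization or gene means, and list medians moved by less than the error of measurement under the first 3 of these, except that of chitinases (-2.09 with the higher floor). At 1.5-fold there were 632 and 569 and at 3-fold 62 and 103. With both arrays at 100 or more there were 42 and 41, and medians of 0.37 for peroxidases, -1.64 for chitinases, -0.16 for antioxidant genes and 0.46 for expansins. Without suffixed probe sets 144 were lower, with medians of -0.032 for peroxidases and -1.64 for chitinases. With no filter 357 were lower, and medians were 0 for peroxidases, chitinases and GDSL lipases and 0.074 for TBL genes, since genes at the floor on both arrays then count as 0.

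With the 4 h full-nutrient array as control there were 442 and 697, and calls were 38.8% higher against 46.9%. Medians were 0.20 for peroxidases, -3.42 for chitinases, -0.27 for PR-type genes, 0.26 for TBL, -1.55 for WRKY, 1.01 for expansins and 0.61 for photosystem genes over the genes then past the filter. AT2G18150 (1.54) and the first probe set of AT2G25760 (-0.24) changed sign. With the mean of both full-nutrient arrays 369 were lower (38.3% of calls higher), with -0.53 for PR-type and -0.91 for WRKY genes.

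Scaling to the added RNA changed both the ratios and which probe sets passed the filter, 4710 in place of 4331. It gave 2808 higher and 45 lower (98.4% of calls higher), around a median of 1.12, and list medians, over the genes then past the filter, of 0.74 for peroxidases, -0.58 for chitinases, 0.51 for PR-type genes, 0.66 for chaperones, 1.37 for antioxidant genes, 1.62 for GDSL lipases, 1.28 for UGT, 1.80 for TBL, 0.99 for WRKY, 0.76 for expansins, 1.08 for ATG8, 1.02 for photosystem, 0.94 for cold and drought and 0.93 for vacuolar ATPase genes, and WRKY53 was at 0.046. With the shift alone, on the probe sets and floor of the main setting (added after seeing the data), there were 2462 and 46 (98.2% higher). Medians were then 0.49 for peroxidases, -1.65 for chitinases, -0.014 for PR-type genes, 0.48 for chaperones, 1.37 for antioxidant genes, 1.88 for GDSL lipases, 1.32 for UGT, 1.80 for TBL, 0.77 for WRKY, 0.76 for expansins, 1.08 for ATG8, 1.02 for photosystem, 0.94 for cold and drought and 0.93 for vacuolar ATPase genes. The lists whose medians differ between these settings differ in which genes passed or in values at the floor.

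Of 64 named probe sets past 2-fold, those still past it in the same direction were 51 with the higher floor (lost were SPR1, LEA4-5, AT4G01130, AT4G33720, GH3.3, WRKY53, AT1G54050, AT2G25760, AT2G44581, AT4G11100, AT4G02360, AT4G21650 and AT4G38300), 63 after quantile normalization, 48 with added-RNA scaling, 45 with the 4 h control and 57 with the mean control. The cause of these shifts was not tested. The promoter motif search was not run, as no promoter sequences were used here. No paired analysis was possible because each group has 1 array.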
